A study of Mus musculus with 6 samples.

Results

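Rab GTPases are small membrane-bound switches, and 54 of their genes were measured in mouse platelets and in megakaryocyte progenitors. The genes were chosen by name, as those on a probe with exactly 1 gene symbol made of Rab, a number and at most 1 letter, with Rab11a, Rab27a and Rab27b left out. They are 54 of the 30142 genes with such a probe, each with 1 probe. Rab1a is listed on the array as Rab1 and Rab7b under a clone name, and both were matched through their Entrez identifiers.

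RNA was measured on 6 Clariom D Mouse arrays, 3 of platelets from mouse blood and 3 of bone marrow cells labelled megakaryocyte progenitors, the cells that mature into the parents of platelets. In each cell type 1 array held RNA of mice that received CTC41.5G-EVs, 1 of mice that received CTC41-EVs and 1 of controls that received PBS. EVs usually stands for extracellular vesicles, small membrane particles that cells release. The sources used here do not give the meaning of the names CTC41 and CTC41.5G, nor strain, age, dose, route, time or the number of mice in a pool. Each array held 1 pool of several mice, without replicates in any group, and p-values therefore measure only the spread between these 6 pools. Some pools may have gone through a bead step that removes leukocytes and erythrocytes, and which ones is not stated.

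The deposited values are log2 signals, on which a difference of 1 is 2-fold. Values are given throughout in the order CTC41.5G-EVs, CTC41-EVs and PBS. The median signal of the platelet arrays was 4.02, 4.05 and 4.0, while that of the progenitor arrays was 4.45, 4.38 and 4.38. All 13 measured platelet and megakaryocyte markers were higher in platelets, and their mean log2 signal was 10.15, 9.65 and 9.76 there and 5.46, 5.42 and 5.35 in progenitors. On the progenitor arrays the platelet chemokine gene Pf4 stood at 6.5, 6.57 and 6.24, and the neutrophil granule gene Ngp stood at 8.69, 8.93 and 8.65. Of 12 neutrophil markers 10 were lower in platelets, and their mean was 5.37, 5.16 and 5.06 in platelets and 6.97, 6.89 and 6.74 in progenitors. Of the red cell markers tested 2 of 5 were higher in platelets and 0 lower, with Alas2 at 9.85, 9.82 and 9.88 in platelets and 5.19, 4.99 and 5.12 in progenitors and Slc4a1 higher by 2.17. Of 6 monocyte and macrophage markers tested 2 were higher and 0 lower, with Lyz2 at 10.02, 9.77 and 9.94 in platelets and 6.94, 6.91 and 7.05 in progenitors and Ly6c2 higher by 0.94. B cell markers were lower for 3 of 6, and of 4 T and NK cell markers 0 were called. The part of other blood cells in the results below was not tested, and in pooled RNA fewer cells of a type and less RNA per cell cannot be told apart.

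A Rab protein is switched on by a guanine nucleotide exchange factor (GEF), which loads it with GTP, and switched off by a GTPase-activating protein (GAP). In the GTP form it sits on a particular membrane and recruits effectors such as tethers and motor adaptors. GDP dissociation inhibitors (GDIs) take the inactive form, which carries prenyl lipids, off the membrane and return it. Platelets release granules on activation and are shed from megakaryocytes with a ready supply of organelles, RNA and protein, and Rab proteins act in the formation, sorting and release of these granules.

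Platelets and progenitors were compared over the 3 treatments to ask which Rab transcripts differ between the cell types. The members that rose in platelets included Rab10 and Rab2a, by 11.9- and 9.36-fold. Rab8b rose by at least 2.67 on the log2 scale, measured from the floor given below, and the progenitor values of Rab2a lay near that floor. Higher calls went to 6 of 8 early endosome Rabs tested and to 5 of 11 recycling and plasma membrane Rabs. Those of the endoplasmic reticulum and Golgi had 3 of 10, where the whole family had 16 of 46. The 4 that fell, Rab3a, Rab44, Rab25 and Rab38, were 1.74- to 2.08-fold lower in platelets. limma with Benjamini-Hochberg adjustment over 18875 genes tested 46 members. It called 16 higher and 4 lower, where a call needs an adjusted p no larger than 0.05 together with a change of 1.5-fold or more. Among all genes tested 16.2% were called higher and 25.7% lower, 41.9% in all. A mean and SD cover the 3 arrays of a cell type, which differ in treatment, and an effect of treatment seen in one cell type but not in the other adds to the SE. Of the members called higher, 8 had a fitted difference of at least 4-fold, as had 3.99% of all genes tested, and 0 members called lower fell that far. Rab28 is 1 of the 8 and was under 4-fold measured from the floor, which leaves 7. Platelet and progenitor values did not overlap for 22 tested members that lay higher in platelets and 15 that lay lower, where the shares over all genes tested were 24.2% and 54.2%, or 78.4% together. The remaining 26 tested members were not called, 13 of them with an adjusted p within 0.05 but under 1.5-fold.

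**Figure D1:**
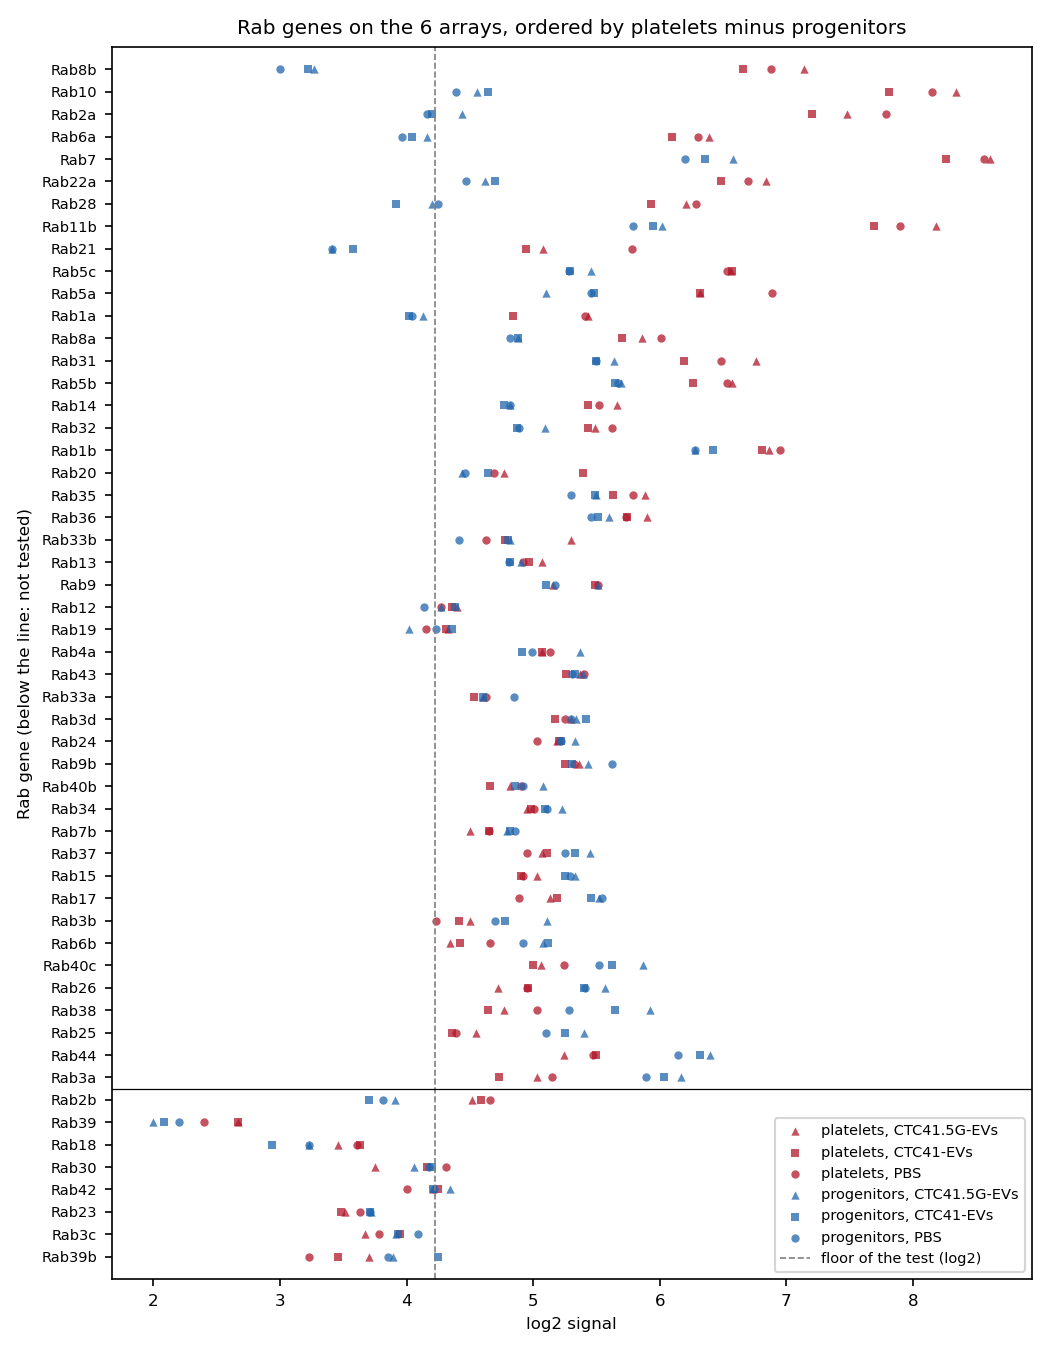
Log2 signal of the 54 Rab genes on each of the 6 arrays (red, platelets; blue, progenitors; triangle, CTC41.5G-EVs; square, CTC41-EVs; circle, PBS), ordered by the platelet minus progenitor difference, with the 8 genes not tested below the horizontal line. The dashed line is the floor of 4.23 that a gene's mean over the 6 arrays had to reach, and Rab8b, Rab10 and Rab2a at the top show the widest gaps between the colours.

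Sensitivity to scaling was uneven between the directions. The 16 members called higher kept that call with quantile normalization, with median-centred arrays and after centring on the olfactory receptor genes, whereas the 4 called lower shrank to 2, 1 and 0 in the same order. The split of members called higher and lower was 16 to 4 as deposited, 18 to 2, 22 to 1 and 31 to 0 under these scalings. Calls over all genes moved the same way, to 21.9%, 24.8% and 40.4% higher, against 16.2% as deposited, and to 12.1%, 10.1% and 5.45% lower, against 25.7%. They moved the median of all genes tested, which was -0.26 as deposited, to 0.05, 0.11 and 0.46, while the median of the 46 members was 0.14 as deposited and 0.46, 0.51 and 0.85. The 4 lower members stayed below 0 under each scaling. Of the members without a call, 9 lay at or below 0 as deposited and above it under the 3 other scalings, namely Rab33a, Rab3d, Rab40b, Rab7b, Rab9b, Rab24, Rab34, Rab37 and Rab43. Another 6 did so under 1 or 2 of them, namely Rab3b, Rab6b, Rab15, Rab17, Rab26 and Rab40c. The scale of the deposited signals between arrays was set by the authors, and differences below are as deposited.

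**Figure D2:**
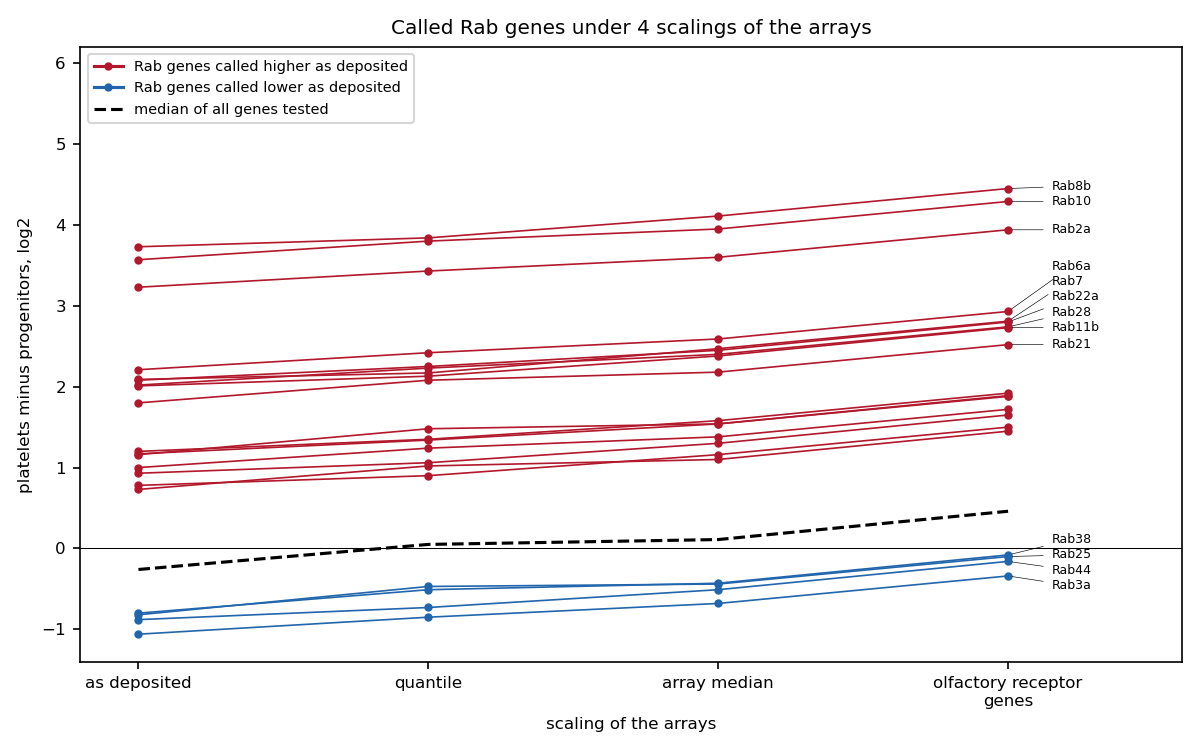
Platelets minus progenitors on the log2 scale (vertical axis) for the 20 called Rab genes under 4 scalings of the arrays (horizontal axis), with red lines for genes called higher as deposited, blue lines for those called lower and the dashed line for the median of all genes tested. Rab8b runs between 3.73 and 4.45, while Rab3a, the lowest line, lies at -1.06 as deposited and -0.34 when centred on olfactory receptor genes.

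The recycling and plasma membrane Rabs held the largest differences. Rab8b, which acts in transport to the plasma membrane and the cilium, stood at 7.14, 6.66 and 6.88 in platelets and 3.27, 3.22 and 3.00 in progenitors. Platelet arrays lay above each progenitor array by more than 3 log2 units, and the difference was 3.73 (SE 0.11, 13.3-fold, adjusted p = 1.93e-06). Its progenitor mean of 3.16 lay under the floor of 4.23, so the fold is uncertain, and measured from the floor the difference was at least 2.67. Rab10, which carries membrane and the glucose transporter GLUT4 to the cell surface in fat cells, stood at 8.34, 7.81 and 8.15 in platelets and 4.56, 4.64 and 4.39 in progenitors. It rose by 3.57 (SE 0.15, 11.9-fold, adjusted p = 3.44e-06), with values above the floor on each array.

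Rab11b, a recycling endosome Rab, stood at 8.18, 7.69 and 7.90 in platelets and 6.02, 5.95 and 5.79 in progenitors, a rise of 2.01 (SE 0.14, adjusted p = 2.64e-05). Rab8a, the paralogue of Rab8b, stood at 5.86, 5.70 and 6.01 in platelets and 4.88, 4.88 and 4.82 in progenitors and rose by 1.0 (SE 0.10, adjusted p = 0.000134). Rab14, which works between the Golgi and endosomes, stood at 5.66, 5.43 and 5.52 in platelets and 4.82, 4.77 and 4.82 in progenitors and rose by 0.73 (SE 0.08, adjusted p = 0.000249). In each of these genes the cell types did not overlap, as for 78.4% of all genes tested. Rab4a, the Rab of fast recycling, stood at 5.07, 5.07 and 5.13 in platelets and 5.37, 4.91 and 4.99 in progenitors. Its values overlapped, with a difference of 0.00 (SE 0.11, adjusted p = 0.986).

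Rab25, an epithelial member of the Rab11 group, was the 1 recycling Rab that fell, by 0.82 (SE 0.08, adjusted p = 0.00013). It stood at 4.55, 4.36 and 4.39 in platelets and 5.40, 5.25 and 5.10 in progenitors. Under the 3 other scalings it was not called, at -0.47, -0.44 and -0.10. Rab35 and Rab15 differed by 0.34 (SE 0.11) and -0.34 (SE 0.08), and both passed the adjusted p but not the fold. Rab12 and Rab13, at 0.08 (SE 0.10) and 0.15 (SE 0.08), did not pass it. Rab4b, close to Rab4a, is on a probe shared with a miRNA gene and is not among the 54. That probe stood at 6.91, 6.90 and 6.81 in platelets and 6.19, 6.34 and 6.36 in progenitors.

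Sequences upstream of the starts are shown for the paralogues Rab8b and Rab8a and for Rab6a and Rab6b, because the 2 genes of each pair had unlike differences between the cell types. They are the 250 bases before the RefSeq start in GRCm38.p6, from 5′ to 3′ on the gene's strand, with CCGGAA, an ETS core motif, or its reverse complement in capitals. Rab8b lies at chr9:66919706-66919955 on the minus strand, Rab8a at chr8:72160950-72161199 on the plus strand, Rab6a at chr7:100607336-100607585 on the plus strand and Rab6b at chr9:103111824-103112073 on the plus strand.
Rab8b: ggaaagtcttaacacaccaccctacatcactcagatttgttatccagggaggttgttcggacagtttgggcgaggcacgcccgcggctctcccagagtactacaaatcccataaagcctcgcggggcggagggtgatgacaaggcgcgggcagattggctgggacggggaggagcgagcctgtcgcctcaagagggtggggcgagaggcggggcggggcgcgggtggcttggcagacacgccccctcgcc
Rab8a: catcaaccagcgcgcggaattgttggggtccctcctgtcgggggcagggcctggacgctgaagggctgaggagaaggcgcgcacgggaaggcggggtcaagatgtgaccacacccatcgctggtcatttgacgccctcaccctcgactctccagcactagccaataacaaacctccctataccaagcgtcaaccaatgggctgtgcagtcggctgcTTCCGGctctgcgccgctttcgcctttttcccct
Rab6a: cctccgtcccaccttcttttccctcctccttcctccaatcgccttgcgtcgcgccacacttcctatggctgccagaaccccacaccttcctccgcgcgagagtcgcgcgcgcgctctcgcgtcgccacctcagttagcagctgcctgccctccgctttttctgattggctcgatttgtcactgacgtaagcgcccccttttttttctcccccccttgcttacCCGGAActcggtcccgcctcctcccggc
Rab6b: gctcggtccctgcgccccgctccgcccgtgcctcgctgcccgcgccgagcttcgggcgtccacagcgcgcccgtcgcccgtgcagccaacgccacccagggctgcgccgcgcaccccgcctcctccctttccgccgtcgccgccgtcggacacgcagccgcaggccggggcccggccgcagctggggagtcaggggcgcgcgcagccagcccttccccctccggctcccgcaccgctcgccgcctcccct
Rab8a and Rab6a each held 1 match, which begins 34 and 28 bases before the start, and Rab8b and Rab6b held 0. Rab6b had 40 CpG dinucleotides, Rab6a 24, Rab8b 20 and Rab8a 18, where the median over 32851 RefSeq starts was 6. CCGGAA was present, on either strand, in 6 of 44 members with a sequence (13.6%) and in 12% of all starts. By call it was present in 4 of 15 higher members, 0 of 2 lower members and 2 of 21 tested members without a call. The difference between these groups was not tested. A member counts if any of its starts holds a match, whereas all starts are counted singly. The GATA motif AGATAA was present in 2 of the 44 members and in 9.99% of all starts, with 0 of the 15 higher members, 0 of the 2 lower and 2 of the 21. Neither its letters nor their reverse complement occur in the 4 sequences above. A match is a string of letters here, and its absence says nothing of the factor.

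Of 10 tested Rabs of the endoplasmic reticulum and Golgi, 3 rose and 0 fell, with a median difference of 0.15. The shares over all genes tested were 16.2% higher and 25.7% lower. Rab2a, which acts between the endoplasmic reticulum and the Golgi and in fusion at lysosomes, stood at 7.48, 7.2 and 7.79 in platelets and 4.44, 4.2 and 4.16 in progenitors. It rose by 3.23 (SE 0.15, 9.36-fold, adjusted p = 4.22e-06). Its relative Rab2b was not tested, with a mean over the arrays under the floor, and stood at 4.52, 4.59 and 4.66 in platelets and 3.91, 3.70 and 3.81 in progenitors. Here too each platelet array lay above each progenitor array.

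Rab6a, which works at the Golgi and recruits the motor adaptor Bicd2, stood at 6.39, 6.10 and 6.30 in platelets and 4.16, 4.04 and 3.96 in progenitors. The gene rose by 2.21 (SE 0.09, adjusted p = 3.03e-06), and by at least 2.04 measured from the floor. Rab6b, a paralogue known from neurons, pointed the other way, at 4.34, 4.42 and 4.66 in platelets and 5.08, 5.12 and 4.92 in progenitors. Its difference of -0.57 (SE 0.11, adjusted p = 0.00317) missed the 1.5-fold threshold as deposited and was 0.15 with arrays centred on olfactory receptor genes, so its direction depends on scaling. The difference between the paralogues was not tested.

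Rab1a and Rab1b share the step of vesicle transport out of the endoplasmic reticulum. Rab1a stood at 5.43, 4.84 and 5.41 in platelets and 4.13, 4.02 and 4.04 in progenitors and rose by 1.16 (SE 0.12, adjusted p = 0.000161), at least 1.0 from the floor. Rab1b stood at 6.86, 6.81 and 6.95 in platelets and 6.28, 6.42 and 6.28 in progenitors, without overlap. Its difference of 0.55 (SE 0.12, adjusted p = 0.00579) was under 1.5-fold as deposited and past it, at 0.92 and 1.27, with arrays centred on their median or on olfactory receptor genes. Of the remaining tested members of the group, Rab33b (0.23, SE 0.11), Rab33a (-0.10, SE 0.09), Rab19 (0.06), Rab43 (-0.00) and Rab34 (-0.17) were not called. Rab33b, a Golgi Rab also tied to autophagy, ran from 4.63 to 5.30 in platelets and from 4.41 to 4.82 in progenitors, and Rab33a from 4.53 to 4.63 in platelets and from 4.60 to 4.85 in progenitors.

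**Figure D3:**
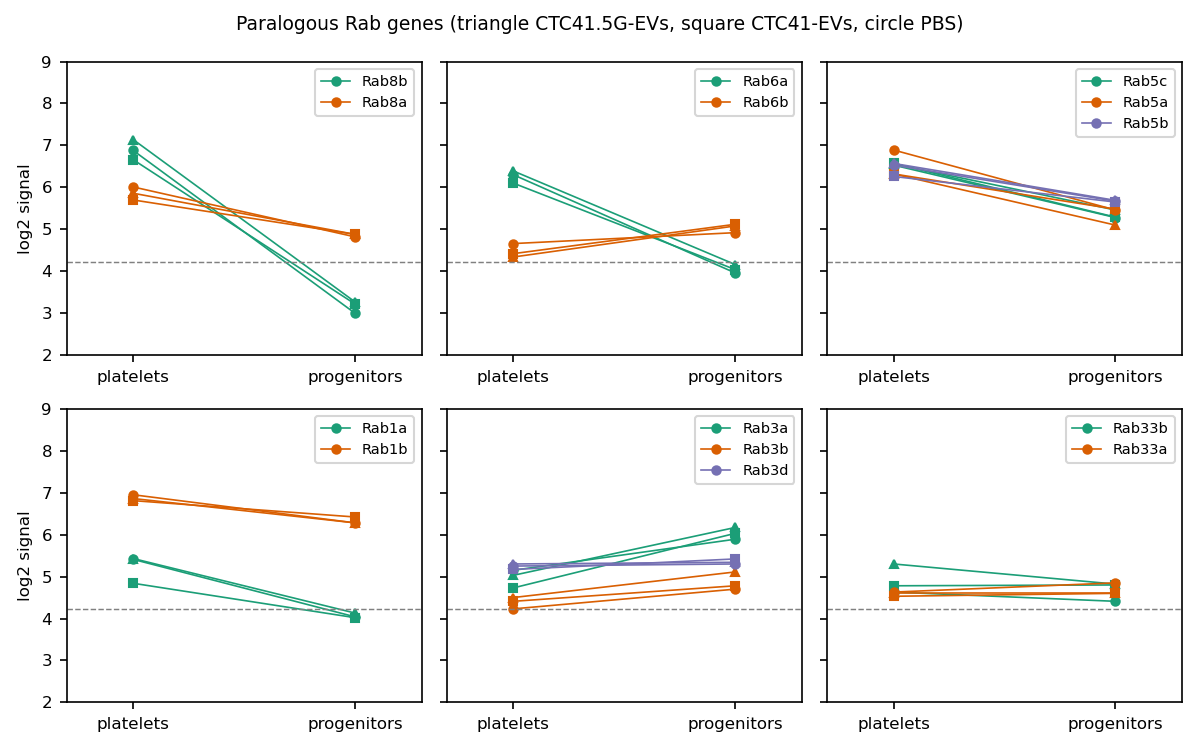
Log2 signal (vertical axis) of 6 sets of paralogous Rab genes in platelets (left) and progenitors (right), with 1 line for each treatment (triangle, CTC41.5G-EVs; square, CTC41-EVs; circle, PBS) and the floor of 4.23 dashed (levels of different probes are not comparable). Rab8b and Rab6a drop steeply towards progenitors and Rab8a less so, while Rab6b runs the other way as deposited but is reversed with arrays centred on olfactory receptor genes.

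Of 8 early endosome Rabs tested, 6 rose and 0 fell, with a median difference of 1.05, against -0.26 over all genes tested. Among all genes tested 16.2% were called higher and 25.7% lower. Rab22a, which acts in recycling from early endosomes, stood at 6.84, 6.48 and 6.70 in platelets and 4.62, 4.70 and 4.47 in progenitors. It rose by 2.08 (SE 0.12, 4.22-fold, adjusted p = 1.1e-05). Rab21, known for trafficking of integrins, stood at 5.08, 4.94 and 5.78 in platelets and 3.41, 3.58 and 3.41 in progenitors. The rise of 1.80 (SE 0.18, adjusted p = 0.000133) came with the widest platelet spread of the called members (SD 0.45), and from the floor it was at least 1.04.

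All 3 Rab5 genes, whose proteins direct the fusion of early endosomes, rose. Rab5c stood at 6.56, 6.57 and 6.53 in platelets and 5.46, 5.29 and 5.28 in progenitors, a rise of 1.20 (SE 0.10, adjusted p = 6.09e-05). Rab5a stood at 6.32, 6.32 and 6.89 in platelets and 5.10, 5.48 and 5.46 in progenitors, a rise of 1.17 (SE 0.13, adjusted p = 0.000244). For Rab5b the values were 6.57, 6.26 and 6.53 in platelets and 5.69, 5.65 and 5.67 in progenitors, a rise of 0.78 (SE 0.11, adjusted p = 0.000689). The cell types did not overlap for any of the 3, as for 78.4% of all genes tested. Rab31, close to Rab22a, stood at 6.76, 6.19 and 6.48 in platelets and 5.64, 5.50 and 5.50 in progenitors and rose by 0.93 (SE 0.12, adjusted p = 0.00045). Rab20 and Rab17, at 0.44 (SE 0.11) and -0.43 (SE 0.10), passed the adjusted p but not the fold.

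Among late endosome, lysosome and autophagy Rabs, Rab7 was the 1 of 5 that rose. That count is near the 16.2% of all genes tested that were called higher and is no result about the group. Rab7, the Rab of late endosomes and lysosomes, stood at 8.61, 8.26 and 8.56 in platelets and 6.58, 6.36 and 6.2 in progenitors, a rise of 2.09 (SE 0.16, 4.27-fold, adjusted p = 3.18e-05). Rab9, which returns receptors from late endosomes to the Golgi, overlapped between the cell types, at 5.16, 5.49 and 5.51 in platelets and 5.51, 5.10 and 5.17 in progenitors (0.12, SE 0.15). Rab9b ran from 5.25 to 5.36 in platelets and from 5.31 to 5.62 in progenitors (-0.14, SE 0.09). Rab7b and Rab24 differed by -0.23 (SE 0.08) and -0.12 (SE 0.08), and neither was called.

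Rab32 and Rab38 act together in building lysosome-related organelles, the class that holds platelet dense granules, and their differences pointed opposite ways. Rab32 stood at 5.49, 5.43 and 5.62 in platelets and 5.09, 4.87 and 4.89 in progenitors. Its difference of 0.56 (SE 0.10, adjusted p = 0.00149) lay just under 1.5-fold as deposited and was past it under the 3 other scalings, at 0.85 to 1.28. Rab38 stood at 4.77, 4.64 and 5.03 in platelets and 5.92, 5.65 and 5.28 in progenitors, without overlap, and fell by 0.80 (SE 0.17, adjusted p = 0.00405). By treatment the difference was -1.14 with CTC41.5G-EVs, -1.01 with CTC41-EVs and -0.25 with PBS, the last under 1.5-fold. Under the other scalings Rab38 was not called, at -0.51, -0.43 and -0.08. Of Hps1 and Hps4, which encode the exchange factor for both proteins, Hps1 fell by 0.64 (SE 0.09), and Hps4 differed by -0.22 (SE 0.09) without a call. The difference between Rab32 and Rab38 was not tested.

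The regulated secretion Rabs held 2 of the 4 members that fell, and 0 of 6 tested members were higher. Both counts are near the shares over all genes tested, 25.7% lower and 16.2% higher, and are no result about these genes. Rab3a, a Rab of synaptic vesicles, stood at 5.03, 4.73 and 5.15 in platelets and 6.17, 6.03 and 5.89 in progenitors and fell by 1.06 (SE 0.12, adjusted p = 0.000258). Rab44, a large Rab known from mast cells and granulocytes, stood at 5.24, 5.50 and 5.47 in platelets and 6.40, 6.32 and 6.14 in progenitors and fell by 0.88 (SE 0.12, adjusted p = 0.000602). Rab44 kept the call with quantile normalization only, and Rab3a also with median-centred arrays. The 4 basophil and mast cell markers tested include 3 that were lower in platelets, among them Mcpt8, at 3.90, 4.01 and 4.07 in platelets and 6.46, 6.86 and 6.42 in progenitors. The part of such cells in the Rab44 difference was not tested.

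The other secretory members were not called. Rab26 and Rab3b lay lower in platelets without overlap, by -0.58 (SE 0.11, adjusted p = 0.00227) and -0.49 (SE 0.09, adjusted p = 0.00207), both under 1.5-fold. Rab3b, at 4.50, 4.41 and 4.23 in platelets and 5.11, 4.78 and 4.70 in progenitors, had the opposite sign, 0.23, with arrays centred on olfactory receptor genes. Rab37, a Rab of secretory granules, differed by -0.30 (SE 0.08), and Rab3d by -0.11 (SE 0.09), with 5.17 to 5.30 in platelets and 5.30 to 5.42 in progenitors. Rab3c was not tested.

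Outside these compartments 1 of 4 tested genes rose, near the 16.2% of all genes tested and no result about the group. That gene was Rab28, a distant member of the family known for a role in cilia and photoreceptors. It stood at 6.21, 5.93 and 6.29 in platelets and 4.2, 3.92 and 4.25 in progenitors, a rise of 2.02 (SE 0.08, 4.06-fold, adjusted p = 2.66e-06) and at least 1.91 from the floor. Rab40c, whose protein joins a ubiquitin ligase, ran from 5.00 to 5.24 in platelets and from 5.52 to 5.87 in progenitors, a difference of -0.57 (SE 0.12) under 1.5-fold. Rab40b ran from 4.66 to 4.90 in platelets and from 4.86 to 5.08 in progenitors (-0.16, SE 0.09), and Rab36 differed by 0.27 (SE 0.09). With Rab2b and Rab3c, the 8 members under the floor were Rab18, Rab23, Rab30, Rab39, Rab39b and Rab42, with array values between 2.0 and 4.66.

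**Figure D4:**
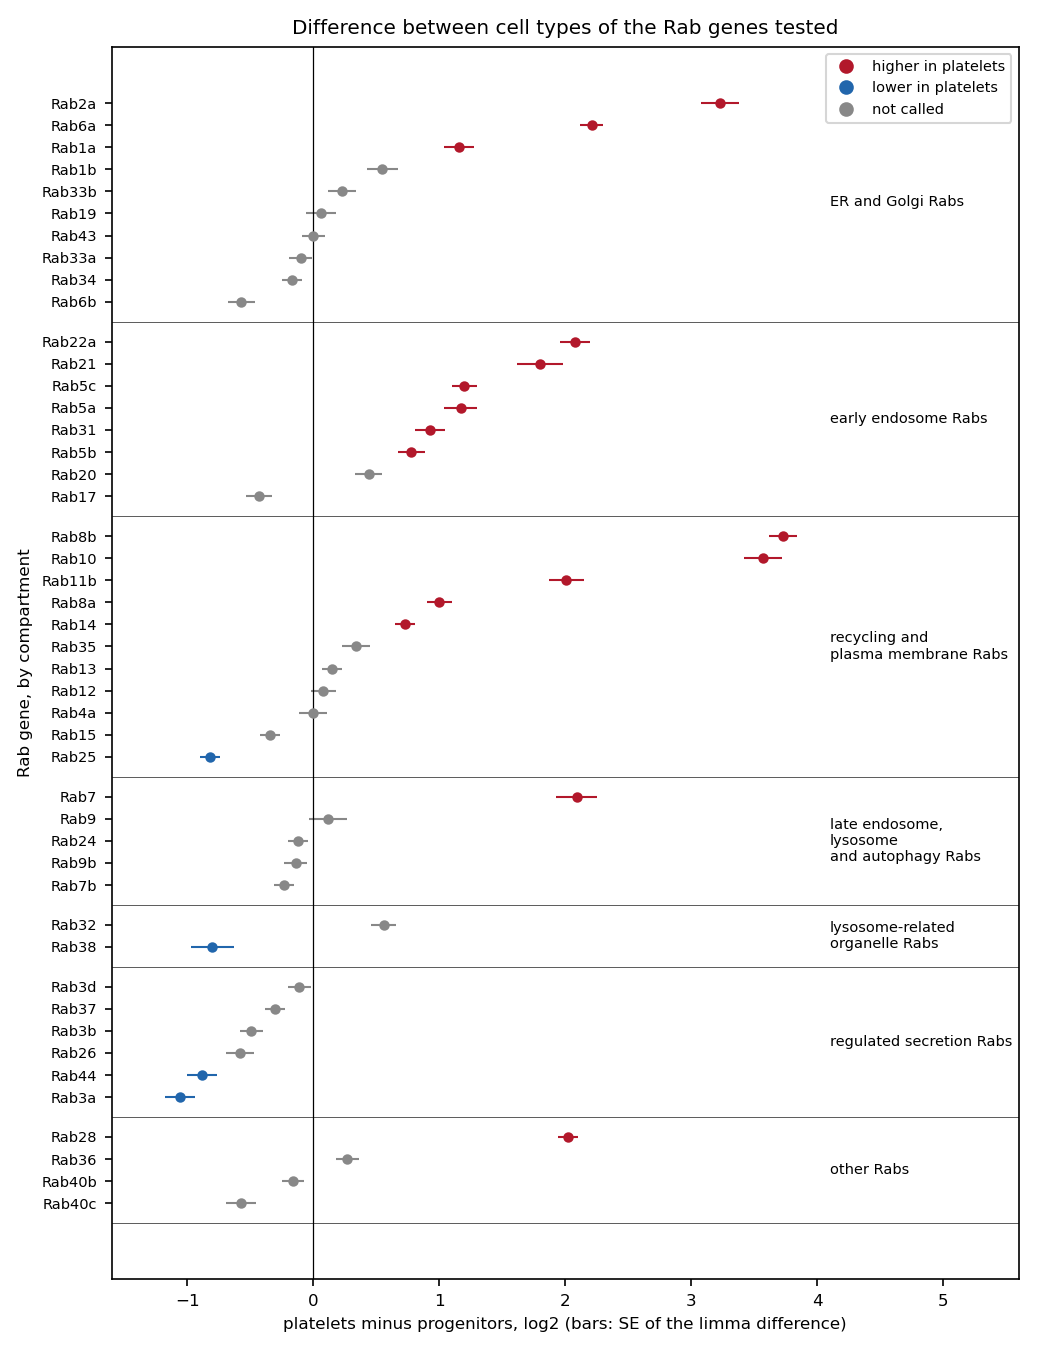
Platelets minus progenitors on the log2 scale (horizontal axis) for the 46 Rab genes tested, grouped by compartment (vertical axis), with bars of 1 SE of the limma difference, red for genes called higher, blue for lower and grey for not called, as deposited. Higher genes stand in each group except lysosome-related organelles and regulated secretion.

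Compared within each treatment, most members kept 1 direction. Of 46 tested members, 22 lay higher in platelets under each of the 3 treatments, 17 lay lower under each and 7 changed sign between treatments. The same count was not made over all genes. Platelet and progenitor values did not overlap for 78.4% of all genes tested, and those genes also keep 1 direction. The members' count is therefore no result about the family. Sign changes were found among members with small differences, such as Rab4a and Rab9. The 16 members called higher kept that call when any 1 array was left out, and so did the 4 called lower. With the treatment term kept, the other array of that treatment then adds nothing to the difference between cell types. These are therefore 3 checks, each without 1 treatment. Without either PBS array the number called lower was 7 instead of 4.

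Regulators of the family were also compared. Of 4 tested genes of prenylation, escort and retrieval, 2 rose and 1 fell. Gdi2, a GDI that takes Rabs off membranes, stood at 7.10, 6.79 and 7.17 in platelets and 4.35, 4.06 and 3.88 in progenitors, a rise of 2.93 (SE 0.13, adjusted p = 4.22e-06), and Rabac1, which helps to insert Rabs into membranes, rose by 1.89 (SE 0.17, adjusted p = 7.46e-05). Rabggta, a subunit of the enzyme that attaches the prenyl groups, fell by 0.91 (SE 0.11, adjusted p = 0.000265), with 4.93, 4.88 and 5.11 in platelets against 6.03, 5.84 and 5.79 in progenitors. The escort protein genes Chm and Chml lay under the floor, as did the progenitor mean of Gdi2.

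Of 31 tested GEF genes, 5 rose and 4 fell, with a median of 0.05, where 16.2% of all genes tested were called higher and 25.7% lower. Dennd4c, an exchange factor for Rab10, averaged 6.46 ± 0.17 in platelets and 3.86 ± 0.08 in progenitors (SD, n = 3 arrays each) and rose by 2.60 (SE 0.09, adjusted p by limma = 2.04e-06). Its relatives Dennd4a and Dennd2c rose by 1.62 (SE 0.09) and 1.11 (SE 0.10), and Rin1, an exchange factor for Rab5, fell by 0.89 (SE 0.08). Of 25 tested GAP genes, 3 rose and 2 fell, with a median of -0.18. Rabgap1l stood at 7.28 ± 0.17 in platelets and 4.18 ± 0.06 in progenitors (SD, n = 3 arrays each), a rise of 3.11 (SE 0.10, adjusted p by limma = 2.04e-06), and Usp6nl, a GAP for Rab5, rose by 0.78 (SE 0.11), while Sgsm3 and Sgsm2 fell by 0.80 (SE 0.09) and 0.66 (SE 0.11).

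Of 27 tested effector genes, 4 rose and 4 fell, with a median of -0.15. The motor adaptor gene Bicd2 rose by 1.63 (SE 0.12), the granuphilin gene Sytl4 by 1.59 (SE 0.15) and the endosome tether gene Eea1 by 1.06 (SE 0.10). Rph3al, which encodes a partner of Rab3 in secretion, fell by 0.84 (SE 0.09). The progenitor means of Dennd4c, Dennd4a, Rabgap1l, Usp6nl and Eea1 lay under the floor, so their folds are uncertain. The shares of these lists called higher can be read against 16.2% of all genes tested, and lower against 25.7%. For the GEF, GAP and effector lists the counts called higher are near that share and are no result about the lists. Their counts called lower are under 25.7%, and that difference was not tested.

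Within each cell type, the EV pools were compared with the PBS pool and with each other to ask whether Rab transcripts differed with treatment. Each such comparison sets 1 array against 1 array and has no test. Members were counted where they differed by at least 1.5-fold (0.585 on the log2 scale) and their mean over the cell type's arrays reached 5.07. This held 29 members in platelets and 25 in progenitors.

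In platelets, CTC41-EVs against PBS had 2 members lower by at least 1.5-fold and 0 higher, where the shares of all 8247 genes above the floor were 2.34% and 0.449%. Rab21 stood at 4.94 with CTC41-EVs and 5.78 with PBS (-0.84), and Rab2a at 7.2 with CTC41-EVs and 7.79 with PBS (-0.59). The Rab21 value with CTC41-EVs lay under the floor of 5.07. Its platelet mean of 5.27 reached that floor with PBS as the highest value. With quantile normalization Rab2a was not past the threshold (-0.53), and Rab20 was (0.64). Rab20 was past it as deposited too, at 5.39 with CTC41-EVs and 4.69 with PBS (0.70). It was not counted there because its platelet mean of 4.95 lay under the floor of 5.07. Rab5a and Rab1a lay just short of the threshold, at -0.57 each. In all, 24 of 29 members lay lower with CTC41-EVs, with a median of -0.20, where 61.1% of all genes lay lower and their median was -0.06. Of the 16 members called higher in platelets, 14 had their lowest platelet value on the CTC41-EVs array, as had 67.7% of all genes called higher, and the mean of the platelet markers was lowest there too. The part of that array as a whole in these differences was not tested.

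With CTC41.5G-EVs against PBS in platelets, Rab21 was the 1 member above the floor and past 1.5-fold. It stood at 5.08 with CTC41.5G-EVs, close to the floor of 5.07, and at 5.78 with PBS (-0.70). Of all genes above the floor 1.31% were lower by that much and 0.643% higher. Under the floor, Rab33b stood at 5.30 with CTC41.5G-EVs and 4.63 with PBS (0.67). Rab21 was highest with PBS among the platelet arrays, and both EV comparisons share that PBS array. Rab5a was again just short, at 6.32 with CTC41.5G-EVs and 6.89 with PBS (-0.57). Of the 29 members 17 lay higher and 12 lower, with a median of 0.04 against 0.01 over all genes.

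Between the EV types in platelets, Rab1a was the 1 member above the floor and past 1.5-fold. It stood at 5.43 with CTC41.5G-EVs and 4.84 with CTC41-EVs (0.59). Of all genes above the floor 2.79% were higher by that much and 0.885% lower. Rab31 followed Rab1a at 0.57 and Rab10 at 0.52. Under the floor, Rab20 stood at 4.77 with CTC41.5G-EVs and 5.39 with CTC41-EVs (-0.62). Of 29 members 22 lay higher with CTC41.5G-EVs, with a median of 0.15, against 61% and 0.07 over all genes. With quantile normalization Rab1a was at 0.56, short of the threshold.

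In progenitors, Rab38 was the 1 member past 1.5-fold in any of the 3 comparisons. It stood at 5.92 with CTC41.5G-EVs, 5.65 with CTC41-EVs and 5.28 with PBS, so that CTC41.5G-EVs minus PBS was 0.63, where 5.47% of all 10858 genes above the floor were higher by that much and 0.746% lower. The median of the 25 members was 0.17 in that comparison, with 21 higher, against 0.13 and 74.9% over all genes. For CTC41-EVs against PBS the members' median was 0.03 against 0.04 over all genes, with 0 members past 1.5-fold, where 3.09% of all genes were higher and 0.101% lower by that much. Between the EV types it was 0.11 against 0.08, again with 0 members past 1.5-fold, and the shares of all genes were 0.608% higher and 0.783% lower.

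**Figure D5:**
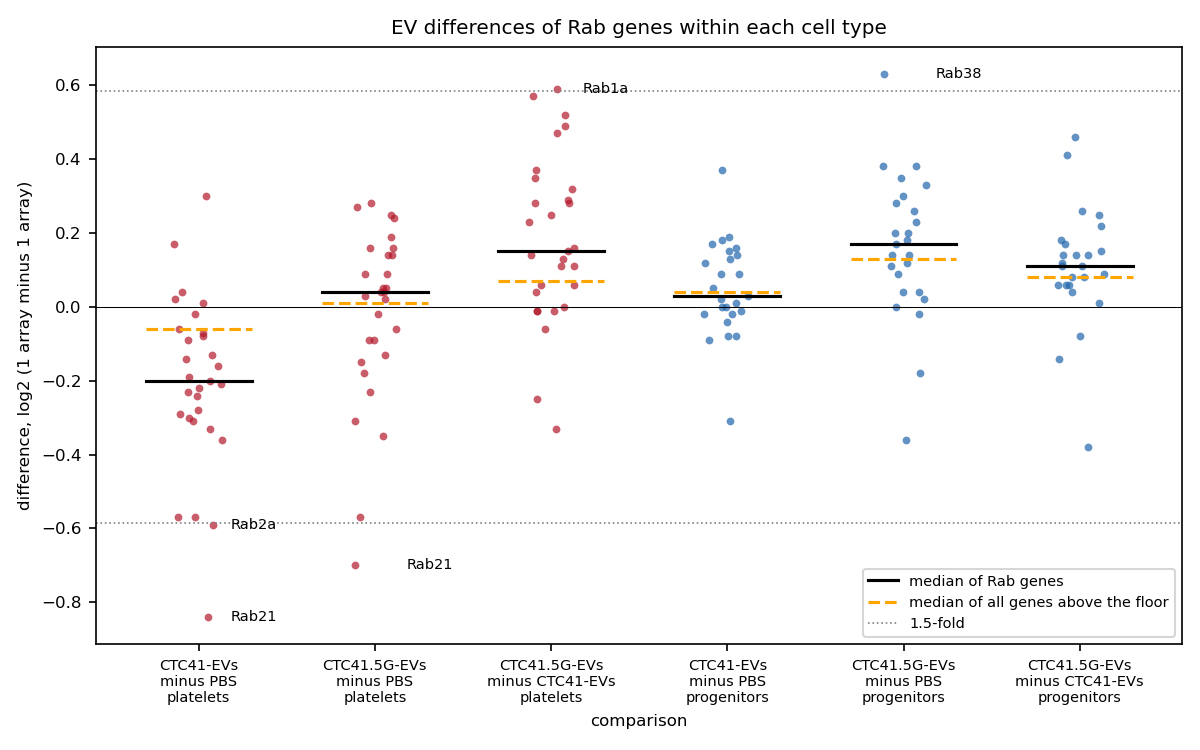
Log2 difference between 1 array and 1 array (vertical axis) for each Rab gene above the floor of 5.07, in 6 comparisons within platelets (red) or progenitors (blue), with the median of the Rab genes as a black bar, that of all genes as an orange dashed bar and 1.5-fold as dotted lines. Named points are past 1.5-fold, and the black bar lies furthest from the orange one, at -0.20 against -0.06, for CTC41-EVs minus PBS in platelets.

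Averaged over both cell types, where each treatment has 2 arrays, limma called 0 members for CTC41-EVs against PBS, 0 for CTC41.5G-EVs against PBS and 0 between the EV types, as over all 18875 genes (0.0% each). At an unadjusted p under 0.05 there were 2, 3 and 3 members and 577, 1171 and 1157 genes (3.06%, 6.2% and 6.13%). These counts among 46 members are near the shares over all genes and are no result about the family. The 5 members behind the first 2 counts were Rab28 and Rab20 for CTC41-EVs, and Rab33b, Rab3b and Rab5a for CTC41.5G-EVs. Between the EV types they were Rab20, Rab28 and Rab31, and this comparison shares the CTC41-EVs arrays with the first. Of the members, Rab33b differed most in that fit, at 0.54 (SE 0.13) for CTC41.5G-EVs minus PBS, with an adjusted p by limma of 0.578. The values were 5.30 with CTC41.5G-EVs and 4.63 with PBS in platelets and 4.82 with CTC41.5G-EVs and 4.41 with PBS in progenitors. Rab28 was lower with CTC41-EVs in both cell types, by -0.35 (SE 0.10) in the fit, and its adjusted p by limma was 1.0.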

How the data were processed

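The authors' deposited values are log2 signals of 72688 probes on 6 arrays, made with Affymetrix Expression Console 1.4.1.46, per the submitters' processing notes, whereas the series description names MAS5.0. The sources used here give neither the scaling between arrays nor the genome build, and the labels' protocols name different RNA kits and input amounts. Of the probes 30604 carried 1 gene symbol, 2146 several and 39938 none, and 827 symbols were updated through Entrez identifiers. A gene was read from its brightest probe. Platelets and progenitors were compared with limma 3.58.1 in R 4.3.3 (cell type plus treatment, variance trend, 2 residual degrees of freedom, Benjamini-Hochberg adjustment) over 18875 genes with a mean signal of at least 4.23 (the 50th percentile over probes). Within a cell type, arrays were compared singly above 5.07, the 75th percentile. The number of arrays limits the precision. Genes given with values on each array were the 20 tested members with the largest differences, members past 1.5-fold between treatments, the best known of each compartment and their paralogues. The limma step was tested on simulated data that held no treatment effects and no shifts between arrays. That test does not bear on the scaling of the real arrays. The members and gene lists were chosen with earlier results of these data known. Upstream sequences are from RefSeq (GRCm38.p6), with 44 of 54 members matched. Alternatives were other scalings, floors and models and leaving out each array.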

Additional observations from a re-analysis of the deposited data

Results flagged for a closer look

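In 3 members a difference of at least 1.5-fold between treatments in one cell type had the opposite sign in the other, each from 1 array against 1 array, and the difference between cell types was not tested. Rab2a differed by -0.59 between CTC41-EVs and PBS in platelets and by 0.04 in progenitors, and with quantile normalization the platelet difference was -0.53, under 1.5-fold. For Rab21 the same comparison gave -0.84 in platelets and 0.17 in progenitors. The platelet value of Rab21 with CTC41-EVs, 4.94, also lay under the floor of 5.07. Rab38 differed by 0.63 between CTC41.5G-EVs and PBS in progenitors and by -0.26 in platelets. All 3 genes had a mean under the floor of 5.07 in the cell type with the smaller difference.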

How the results depend on the processing

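With quantile normalization, arrays centred on their median and arrays centred on olfactory receptor genes, members called lower numbered 2, 1 and 0, and the members' median was 0.46, 0.51 and 0.85. The last scaling called 31 members higher. Over all genes, 2282, 1911 and 1029 were called lower under these scalings, and 4673 and 7628 were called higher under the last 2. In the same order, differences of opposite sign were 0.27, 0.28 and 0.62 for Rab33a, 0.19, 0.27 and 0.61 for Rab3d, 0.19, 0.22 and 0.56 for Rab40b, 0.13, 0.15 and 0.49 for Rab7b and 0.13, 0.23 and 0.57 for Rab9b. With olfactory receptor genes alone, Rab3b was at 0.23, Rab40c at 0.15 and Rab6b at 0.15. A floor at the 75th percentile gave a members' median of 0.34 and 4745 genes called, 2356 of them lower. A floor at the 90th percentile left 9 members tested, with 8 called higher, 0 lower and a median of 1.2. It gave 2115 genes called, 1430 higher and 685 lower. Of all genes tested 46.6% were then called higher and 22.3% lower, against 24.7% and 24.4% at the 75th percentile. The floor is on the mean over both cell types, which a gene high in platelets can reach through platelets. The members' counts under these floors therefore add nothing to the calls. Fewer genes are tested under these floors, and the cause of the other shifts was not tested.

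Members at least 1.5-fold apart within a cell type numbered 5 over the comparisons, 10 with arrays centred on their median, 8 with a floor at the 50th percentile and 1 at the 90th. For CTC41-EVs minus PBS in platelets the count was 5 with centring on the median and 1 at the 90th percentile. For CTC41.5G-EVs minus PBS in platelets it was 2 with quantile normalization, 3 with the median, 2 at the 50th percentile and 0 at the 90th. Between the EV types in platelets it was 0, 2, 2 and 0 in the same order. For CTC41.5G-EVs minus PBS in progenitors it was 0 with the median and 0 at the 90th percentile.

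Leaving out 1 array at a time gave 4 to 7 members called lower, the 7 without either PBS array, when Rab6b (-0.72) and Rab40c (-0.71) were among them. With the treatment term, leaving out an array takes its whole treatment out of the difference between cell types. Rab4a was at -0.07 without a PBS array and -0.08 without a CTC41-EVs array. Rab9 ranged over -0.01 without a CTC41-EVs array to 0.36 without a CTC41.5G-EVs array. Over the alternatives, 411 differences of named members kept their direction and side of the threshold, 17 passed it, 9 no longer did and 24 turned sign. The comparison of cell types is itself matched by treatment, and without the treatment term 16 members were called higher and 4 lower, as with it. Without replicates, a difference between 2 treatments cannot be told apart from one between pools.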
